A study of Mus musculus with 12 samples.

Results

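The 87 genes described here encode the drug-metabolising enzymes that were detected in the embryonic mouse testis: cytochrome P450 enzymes of families 1 to 4 (Cyp), glutathione S-transferases (Gst), UDP-glucuronosyltransferases (Ugt) and sulfotransferases (Sult). They were chosen by the pattern of their symbols and by a count of at least 10 in at least 3 of the 12 libraries. Of 35976 gene symbols, 137 matched the pattern, and 87 of these passed the count filter. They comprised 42 of 75 Cyp, 21 of 21 Gst, 10 of 20 Ugt and 14 of 21 Sult symbols. The filter took no account of treatment, but 7 of the 87 members reached 10 counts in F3 libraries only. Cyp2a12, Cyp2e1, Sult2a1 and Ugt1a9 were just inside the filter, with exactly 3 libraries at 10 counts or more, and Cyp2a22, Cyp2g1 and Ugt2b1 were just outside it with 2. Cyp2e1, the ethanol-inducible P450, had counts of 4, 1 and 0 in F1 control, 6, 2 and 9 in F1 *thia*, 4, 7 and 20 in F3 control, and 8, 46 and 20 in F3 *thia*. Ugt2b1 had counts of 0 to 1 in the F1 libraries, of 1, 5 and 11 in F3 control, and of 9, 28 and 4 in F3 *thia*.

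These enzymes make foreign compounds and endogenous steroids easier to excrete. P450 enzymes of the endoplasmic reticulum insert an oxygen atom with electrons delivered by the reductase Por, and the transferases then attach glutathione (Gst), glucuronic acid (Ugt) or sulphate (Sult). The liver is the main site for most of the family, while the testis is known for abundant glutathione S-transferases. Several P450 and Gst genes are controlled by the aryl hydrocarbon receptor Ahr, the pregnane and constitutive androstane receptors Nr1i2 and Nr1i3, and the oxidative stress factor Nfe2l2.

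RNA was sequenced from testes of outbred Swiss (RjOrl) mouse embryos on embryonic day E15.5, and each library was made from a pool of 3 embryos. Pregnant F0 females had received the neonicotinoid insecticide thiacloprid (*thia*) by gavage at 6 mg/kg/day from embryonic days E6.5 to E15.5, or the oil vehicle (dose 0). F1 embryos were exposed directly, whereas F3 was obtained by mating F1 and then F2 males with untreated females of other families, so that F3 embryos were never exposed themselves. There were 3 libraries in each of the 4 groups, F1 control, F1 *thia*, F3 control and F3 *thia*. No engineered allele is named for these mice. Because pools of whole testes were used, more cells of one type cannot be told apart from more RNA per cell.

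The 12 libraries held 25081647 to 68996146 counts, so that 10 counts corresponded to 0.145 to 0.399 CPM (counts scaled to a common library size). Levels are CPM with TMM scaling over all 12 libraries. Markers of Sertoli cells and fetal Leydig cells were present in every library, with sums of 515 to 1598 CPM over 6 Sertoli genes and of 2166 to 6881 CPM over 5 Leydig genes. RNA of 10 hepatocyte markers was also found. Their sum was 154 to 576 CPM in F1 control, 113 to 228 CPM in F1 *thia*, 491 to 2195 CPM in F3 control and 827 to 6670.4 CPM in F3 *thia*. F3 *thia* replicate 2 (6670.4 CPM) and F3 control replicate 3 (2195 CPM) held the most, and all 10 markers, among them albumin (Alb), alpha-fetoprotein (Afp) and transthyretin (Ttr), were highest in F3 *thia* replicate 2. Several F3 values are also given without these 2 libraries.

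Promoter sequences of 6 members are shown to let the regulatory letters be read beside the expression values. Gstm5, Gstp1 and Gstm1 had the smallest p-values among the transferases in F3, Cyp1b1 was the highest P450 of its family, and Cyp3a16 and Ugt2b34 represent the genes that were highest in the 2 libraries richest in hepatocyte markers. The sequences are RefSeq promoter windows of GRCm38.p6, read from 5′ to 3′ and ended at the base before the first annotated exon. Capitals mark 4 motifs on either strand: GCGTG, the core of the xenobiotic response element recognised by Ahr, TGACNNNGC, the core of the antioxidant response element recognised by Nfe2l2, the GC box GGGCGG, and the TATA box TATAAA.
Gstm5: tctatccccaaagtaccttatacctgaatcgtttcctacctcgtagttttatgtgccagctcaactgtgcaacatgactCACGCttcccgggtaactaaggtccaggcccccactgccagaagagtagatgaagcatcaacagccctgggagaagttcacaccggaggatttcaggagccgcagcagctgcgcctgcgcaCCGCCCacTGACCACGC
Gstm1: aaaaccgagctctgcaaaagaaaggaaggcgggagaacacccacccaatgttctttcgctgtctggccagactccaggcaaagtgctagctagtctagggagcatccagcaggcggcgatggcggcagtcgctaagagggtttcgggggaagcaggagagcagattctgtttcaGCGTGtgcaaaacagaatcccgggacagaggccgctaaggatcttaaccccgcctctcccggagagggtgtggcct
Gstp1: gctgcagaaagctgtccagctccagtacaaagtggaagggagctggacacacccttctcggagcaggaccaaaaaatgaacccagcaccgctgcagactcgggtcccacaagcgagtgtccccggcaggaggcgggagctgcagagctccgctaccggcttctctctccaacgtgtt
Cyp1b1: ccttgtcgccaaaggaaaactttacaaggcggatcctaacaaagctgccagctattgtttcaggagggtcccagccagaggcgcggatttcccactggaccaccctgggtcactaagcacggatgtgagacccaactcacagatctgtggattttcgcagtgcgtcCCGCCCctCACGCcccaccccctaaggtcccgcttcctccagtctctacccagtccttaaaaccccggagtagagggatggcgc
Cyp3a16: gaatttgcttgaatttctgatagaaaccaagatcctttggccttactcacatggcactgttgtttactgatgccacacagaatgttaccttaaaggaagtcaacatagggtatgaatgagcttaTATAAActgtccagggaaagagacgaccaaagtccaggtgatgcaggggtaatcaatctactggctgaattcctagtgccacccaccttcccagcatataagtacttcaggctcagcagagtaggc
Ugt2b34: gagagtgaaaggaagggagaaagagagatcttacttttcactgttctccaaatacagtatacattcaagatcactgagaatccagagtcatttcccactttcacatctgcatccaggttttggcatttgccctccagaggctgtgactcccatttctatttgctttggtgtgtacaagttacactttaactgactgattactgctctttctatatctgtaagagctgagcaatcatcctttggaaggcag

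The windows lie at chr3:107895604-107895820 (plus strand) for Gstm5, chr3:108017974-108018223 (minus strand) for Gstm1, chr19:4037986-4038162 (minus strand) for Gstp1, chr17:79715062-79715311 (minus strand) for Cyp1b1, chr5:145469724-145469973 (minus strand) for Cyp3a16 and chr5:86906938-86907187 (minus strand) for Ugt2b34. Gstm5 held 1 antioxidant core, 2 xenobiotic cores and 1 GC box, and its antioxidant core overlapped a xenobiotic core read on the other strand. Gstm1 held 1 xenobiotic core, Cyp1b1 1 xenobiotic core and 1 GC box, and Cyp3a16 1 TATA box, while Gstp1 and Ugt2b34 held none of the 4 motifs in the letters shown. The letters shown for Gstp1 are 177 bases, and its full window of 250 bases, which enters the percentages below, held 1 xenobiotic core and 1 GC box. Those for Gstm5 are 217 bases, and its full window held 2 GC boxes. A second window of Gstm1, not shown, held 1 xenobiotic core and 1 TATA box. A window was found for 76 of the 87 members (91 windows, since a gene can have several starts). In the 250 bases upstream, the xenobiotic core occurred in 19.8% of the members' windows and in 28.2% of the 32851 windows of all genes. The antioxidant core occurred in 5.49% and 10.2%, the GC box in 27.5% and 32.7%, and the TATA box in 24.2% and 12.4%. Among the families, Gst windows held a GC box most often (44.4%), Cyp windows a TATA box (34.1%), and the 8 Ugt windows held no xenobiotic or antioxidant core. These are counts of letters, and binding was not measured.

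Glutathione S-transferases made up most of the members' RNA in the embryonic testis. Levels were compared between genes per kilobase of exon (CPM divided by the exonic length, RPKM, mean of the 12 libraries). The 21 Gst genes accounted for 91.8% of the summed RPKM of all members, the 42 Cyp genes for 5.57%, the 14 Sult genes for 2.20% and the 10 Ugt genes for 0.387%. The 7 mu-class genes, which lie in one cluster at chr3:107895821-108044894 (mm10), carried 62.4% on their own. Gstm2 was the highest member at 247 RPKM, followed by Gstm1 at 180.2, Gsta4, which conjugates the lipid peroxidation product 4-hydroxynonenal, at 135, Gstm5 at 103 and the pi-class enzyme Gstp1 at 69.6 RPKM. Gsto1 of the omega class reached 25.1 RPKM and Gstt1 of the theta class 14.7 RPKM. The first 10 members in this order were all Gst genes and together held 87.5% of the sum.

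The P450 genes were low by comparison. Cyp1b1, which hydroxylates oestrogens and polycyclic hydrocarbons, was the highest at 10.9 RPKM, ahead of Cyp4f16 (6.32 RPKM), Cyp2s1 (5.23 RPKM), Cyp2c55 (5.002 RPKM) and Cyp2d22 (4.60 RPKM). Its 2 relatives, the classical Ahr targets Cyp1a1 and Cyp1a2, were at 0.0651 and 0.237 RPKM. Among the 4 Cyp3 genes, the fetal liver form Cyp3a16 was highest at 1.53 RPKM. The highest sulfotransferase was the brain-type Sult4a1 at 10.1 RPKM, and the highest Ugt was Ugt2b34 at 1.75 RPKM. Without F3 *thia* replicate 2, Cyp3a16 was at 0.707 RPKM and Ugt2b34 at 0.888 RPKM, and each was still the highest of its family. Of the 87 members, 46 had at least 10 counts in all 12 libraries.

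**Figure D1:**
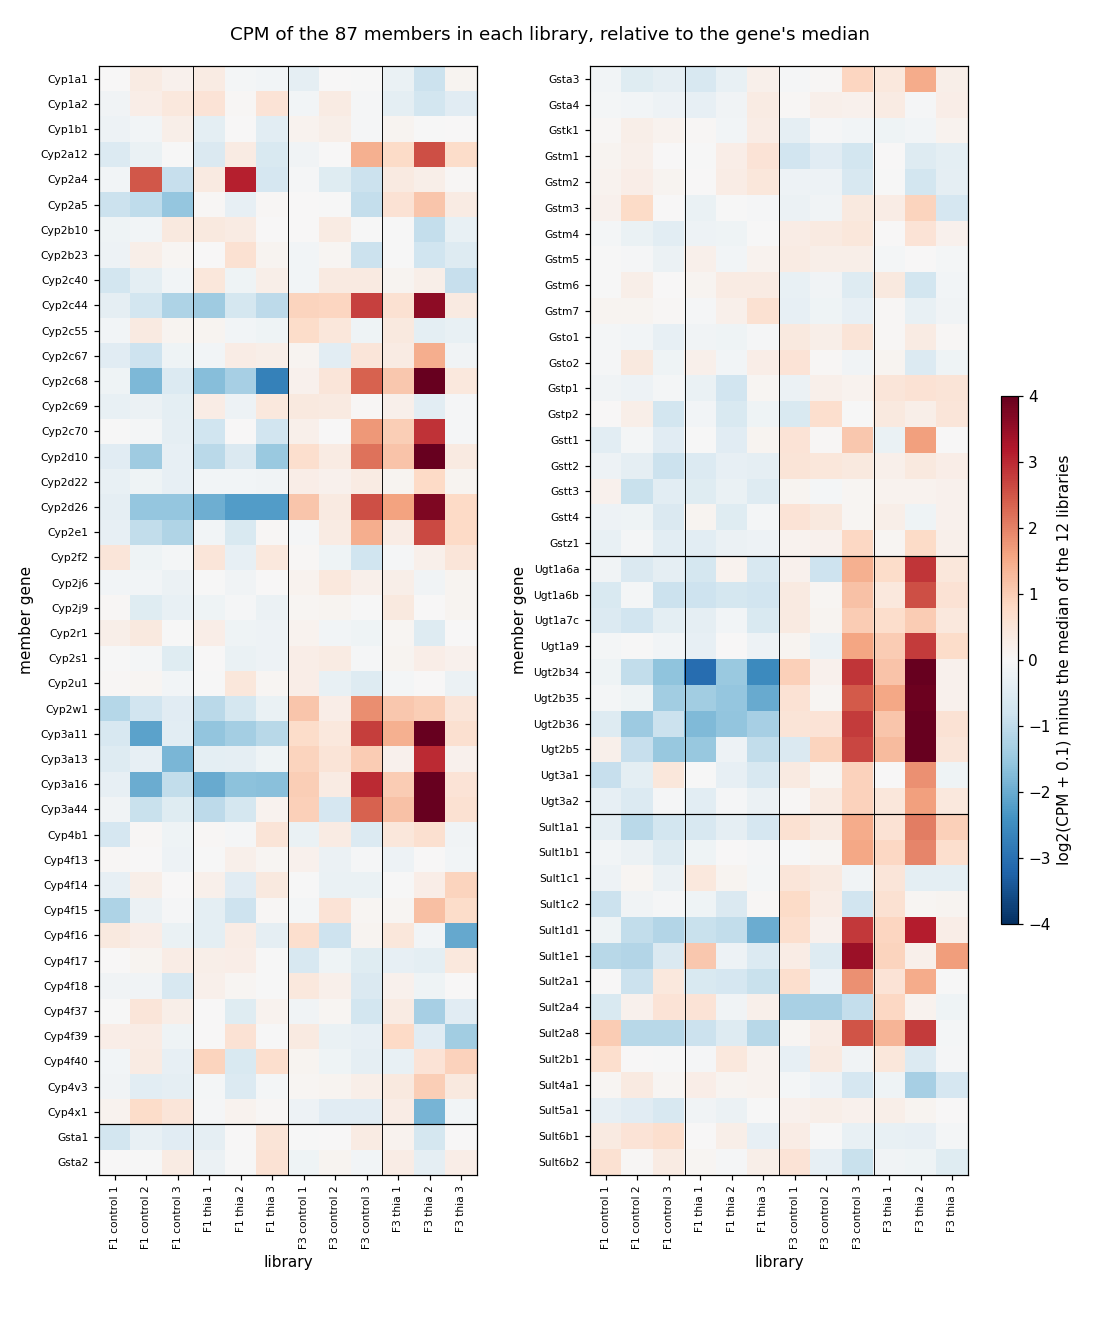
Heat map of the 87 members (rows, by family) in the 12 libraries (columns, by group). Colour gives log2(CPM + 0.1) minus the gene's median over the libraries, with the scale ended at 4 either way. All 10 Ugt genes, the 4 Cyp3a genes and several Cyp2c and Cyp2d genes are darkest in F3 *thia* 2 and next in F3 control 3, while the most abundant member, Gstm2, ranges from 253 to 578 CPM.

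The 2 libraries with the most hepatocyte marker RNA were also the highest for many members. In 32 of the 87 members the 2 highest libraries were F3 *thia* replicate 2 and F3 control replicate 3. They comprised all 10 Ugt genes, all 4 Cyp3 genes, 9 of 23 Cyp2 genes, 5 of 14 Sult genes and 4 of 21 Gst genes, but none of the 3 Cyp1 or 12 Cyp4 genes. Of the Ugt genes, Ugt1a6a, Ugt1a6b and Ugt1a9 reached 10 counts in F3 libraries only, so the count filter itself favoured this pattern for them. F3 *thia* replicate 2 was the highest library for 35 of the 87 members, against 1 to 9 members for each other library. The same counts over all genes are not given here, so the pattern is not shown to be particular to these enzymes. Because these 32 were picked from these 2 libraries, they are given as a description without a test, and their order in the other 10 libraries need not be that of the markers. Gstz1, for example, was at 42.4, 43.6 and 69.03 CPM in F3 control and 41.2, 65.8 and 44.4 CPM in F3 *thia*, with its lowest F3 value in *thia* replicate 1, which held more marker RNA than *thia* replicate 3.

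Ugt2b34, a glucuronosyltransferase of the Ugt2b cluster, had the highest level per kilobase of the Ugt genes. It was at 5.18, 2.94 and 19.5 CPM in F3 control and 5.80, 48.5 and 2.95 CPM in F3 *thia*, against 2.30, 1.26 and 0.779 CPM in F1 control and 0.225, 0.868 and 0.365 CPM in F1 *thia*. Cyp3a16 was measured at 1.58, 0.971 and 6.67 CPM in F3 control and 1.61, 18.2 and 1.14 CPM in F3 *thia*, with 0.112 to 0.580 CPM over the 6 F1 libraries. Cyp2c68, a P450 of the Cyp2c cluster, was at 0.744, 0.944 and 3.75 CPM and 1.48, 13.8 and 0.899 CPM in the same F3 groups. In all 3 genes the same single library of each F3 group stood above the other 2, and the control and *thia* groups overlapped.

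The sum of the 10 Ugt genes placed the libraries in nearly the same order as the sum of the hepatocyte markers. The 3 highest libraries were the same in both, F3 *thia* 2, F3 control 3 and F3 *thia* 1, with 80.8, 32.02 and 11.5 CPM of Ugt RNA beside 6670.4, 2195 and 1278 CPM of marker RNA. The 2 lowest were F1 *thia* 1 and F1 *thia* 3 in both, with 1.27 and 1.31 CPM of Ugt RNA. The Gst sum showed no such order, being lowest in F3 control 3 and at place 10 of 12 in F3 *thia* 2. The part of liver RNA in the Ugt and Cyp3 levels was not tested.

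**Figure D2:**
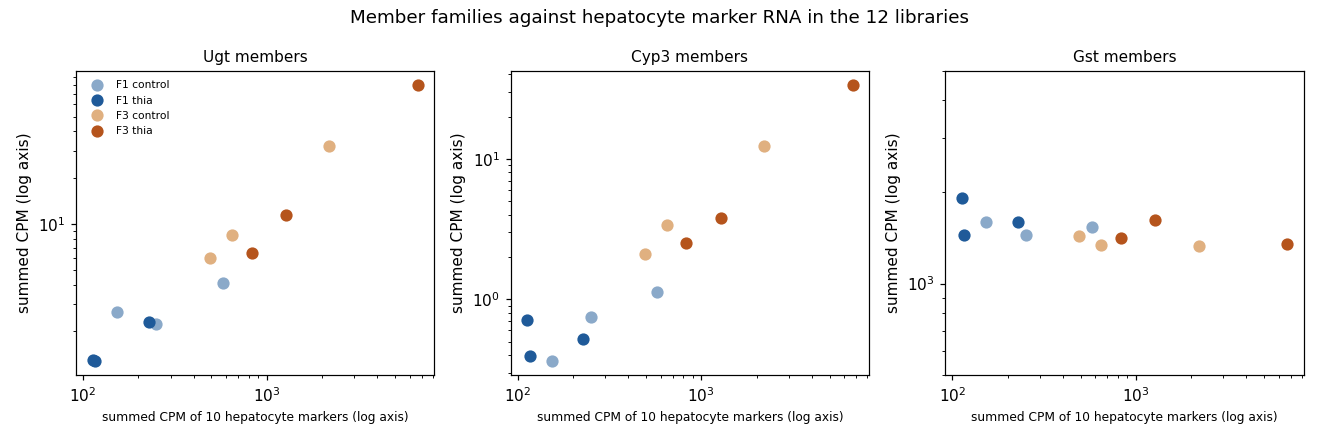
Summed CPM of the Ugt, Cyp3 and Gst members (vertical, log axes) against the summed CPM of 10 hepatocyte markers (horizontal, log axis), 1 point per library, coloured by group. The Ugt and Cyp3 sums are highest in the library with the most marker RNA (80.8 and 33.8 CPM), whereas the Gst sum there is 1344 CPM, at place 10 of 12.

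**Figure D3:**
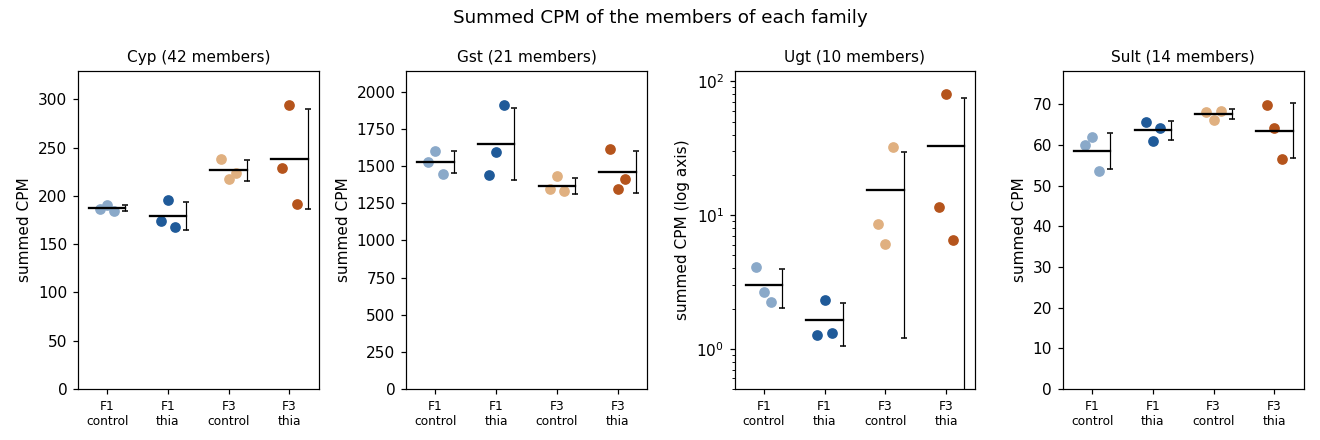
Summed CPM of the members of each family in the 12 libraries. Points are libraries, horizontal bars are group means and vertical bars are the SD of 3 libraries; the Ugt axis is logarithmic and the lower end of its F3 *thia* bar runs off the axis. The control and *thia* libraries overlap in every family in F3, and the Ugt sum spans 6.501 to 80.8 CPM within F3 *thia*.

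The summed levels of the control and *thia* libraries overlapped in each of the 4 families in both generations. The Gst sum was 1525 ± 75.1 CPM in F1 control and 1648 ± 240.4 CPM in F1 *thia* (mean ± SD, n = 3), and 1368 ± 53.9 and 1457 ± 141 CPM in F3. The Cyp sum was 187 ± 3.27 and 179 ± 14.4 CPM in F1, and 226 ± 10.7 and 238 ± 52.1 CPM in F3. The Sult sum was 58.5 ± 4.39 and 63.5 ± 2.34 CPM in F1, and 67.5 ± 1.21 and 63.5 ± 6.69 CPM in F3. For these 3 families the log2 ratio of *thia* over control lay between -0.07 and 0.12 in F1 and between -0.09 and 0.09 in F3.

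The Ugt sum alone had a wide ratio, in opposite directions. It was 2.99 ± 0.981 CPM in F1 control and 1.63 ± 0.586 CPM in F1 *thia* (log2 ratio -0.88), and 15.53 ± 14.3 and 32.9 ± 41.5 CPM in F3 (log2 ratio 1.08). The F3 groups overlapped. Without F3 *thia* replicate 2 the F3 ratio turned to -0.79, and without that library and F3 control replicate 3 it was 0.31.

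The first comparison asked whether direct exposure in the womb changed these genes in F1 testes. No member passed the edgeR quasi-likelihood test at an FDR of 0.15, among 63 members with enough counts to be tested; over all 19137 genes tested, 0.0105% passed. At an unadjusted p under 0.05, 5 of the 63 members passed (7.94%), against 8.76% of all genes. Of these, 3 were higher and 2 lower in *thia*, as were 4.63% and 4.13% of all genes. The groups did not overlap for 8 of 63 members (12.7%) and for 15.0% of all genes. Leaving out 1 library changed the number of members with an unadjusted p under 0.05 in edgeR. It was 2 without F1 control replicate 1, 9 without F1 *thia* replicate 1 and 12 without F1 *thia* replicate 2. Of all genes, 2305, 1846 and 1561 had such a p in these fits, against 1677 with all 6 libraries. DESeq2 called 0 members at the same FDR, against 0.888% of all genes, and gave 3 members an unadjusted p under 0.05. Some members, such as Cyp2a5 and Cyp2c67, had no DESeq2 adjusted p and count as not called. The members' median log2 fold change was 0.11, with 42 of 63 above 0 (66.7%), and that of all genes was 0.00940, with 52.0% above 0.

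Sult5a1 was the most abundant of the 5. It was measured at 20.9, 19.2 and 16.9 CPM in the control libraries and 24.02, 22.2 and 26.2 CPM in the *thia* libraries, and the groups did not overlap (log2 fold change 0.36, SE 0.11, unadjusted p = 0.0107, adjusted p = 0.510). Cyp2a5, the coumarin hydroxylase, had the smallest p but only 1 to 6 counts in the control and 9 to 21 counts in the *thia* libraries (log2 fold change 1.62, SE 0.46, unadjusted p = 0.00515, adjusted p = 0.455). It shares 12.1% of its 100-base windows with other genes, mainly Cyp2a4, so its reads may be divided between the pair. Cyp2c67 was also higher, at 0.290, 0.197 and 0.371 CPM in the control libraries and 0.393, 0.545 and 0.518 CPM in the *thia* libraries (log2 fold change 0.83, SE 0.36, unadjusted p = 0.0417, adjusted p = 0.561).

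Ugt2b34 and Cyp2c68 were lower in F1 *thia* at the unadjusted level. Ugt2b34 had the values given above, in which the groups overlapped (log2 fold change -1.62, SE 0.50, unadjusted p = 0.00854, adjusted p = 0.507). Cyp2c68 was measured at 0.559, 0.115 and 0.408 CPM in the control libraries and 0.131, 0.198 and 0.0152 CPM in the *thia* libraries (log2 fold change -1.69, SE 0.75, unadjusted p = 0.0469, adjusted p = 0.565). Both were highest in F1 control replicate 1, the F1 library with the most hepatocyte marker RNA (576 CPM against 113 to 251 CPM in the other 5), and the part of liver RNA in this difference was not tested.

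The next 5 members in order of p did not reach an unadjusted p of 0.05. Cyp2c69 had a log2 fold change of 0.60, Gstm3 of -0.49, Sult6b1 of -0.63, Gsta1 of 0.81 and Gstm6 of 0.19, with adjusted p-values of 0.584 to 0.597. Gsta1 shares 80.6% of its 100-base windows with other genes and cannot be separated cleanly from them. The SE of the log2 fold change was below 0.25 for 35 of the 63 members. Among the abundant genes, Cyp1b1 was at 56.3, 60.4 and 75.6 CPM in the control libraries and 49.00, 65.9 and 48.5 CPM in the *thia* libraries (log2 fold change -0.22, SE 0.15, unadjusted p = 0.163, adjusted p = 0.652), and the groups overlapped. Cyp2a4, a testosterone hydroxylase, was high in 1 pool of each group, with 106 counts in control replicate 2 and 111 in *thia* replicate 2 against 2 to 17 in every other library of either generation.

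**Figure D4:**
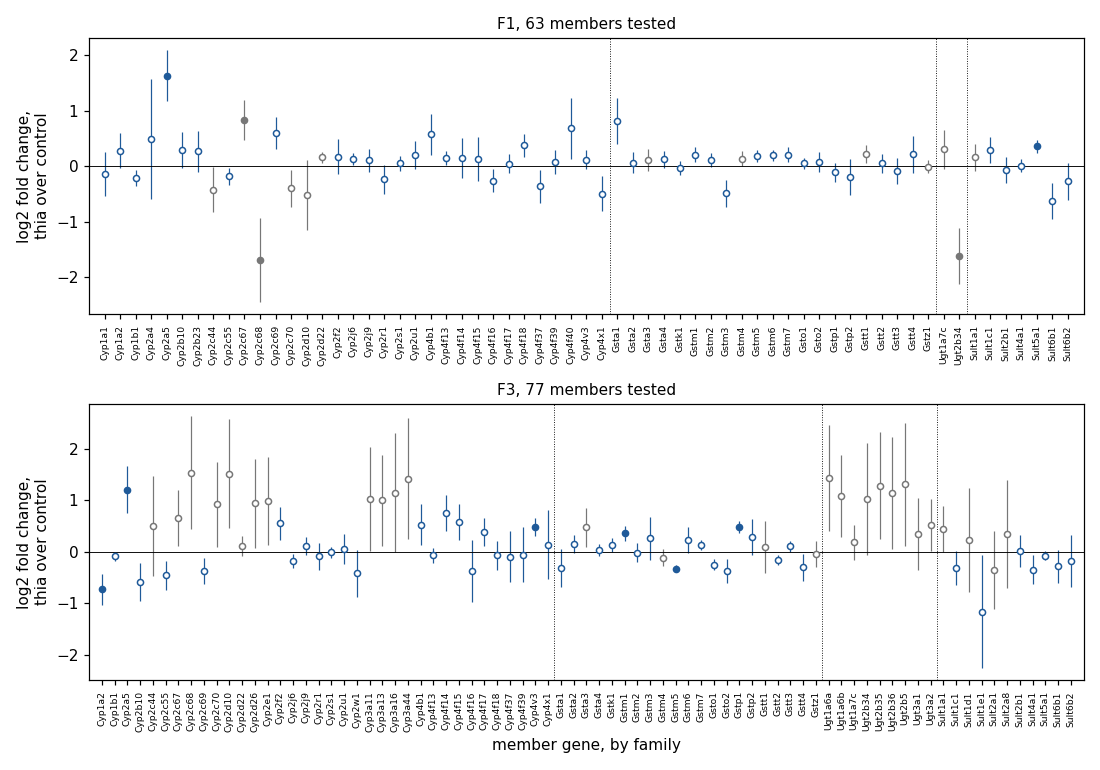
Log2 fold change of *thia* over control for each member tested in F1 (63 members) and F3 (77 members), with SE bars. Filled points have an unadjusted p under 0.05 (5 in F1, 6 in F3). Grey points are members whose 2 highest libraries were F3 *thia* 2 and F3 control 3. In F3 their bars range from narrow (Gstm4, SE 0.159) to wide (Ugt2b5, SE 1.19).

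The second comparison asked whether the F3 testes, 2 generations after the exposed embryos, differed. No member passed an FDR of 0.1 in edgeR among the 77 tested, and none of the 18539 genes did (0%). At an unadjusted p under 0.05, 6 of 77 members passed (7.79%), against 21.1% of all genes, so that the members' share was below the background. Of these, 4 were higher and 2 lower in *thia*, as were 11.0% and 10.0% of all genes. The median SE was 0.351 for the members and 0.152 for all genes, so the shares do not rest on equal precision. The control and *thia* groups did not overlap for 6 of 77 members (7.79%), against 27.3% of all genes. DESeq2 called 3 members, Gstm5, Gstp1 and Cyp4v3 (3.90%), against 13.7% of all genes. It gave no adjusted p to many members, such as Cyp1a2, Cyp2a5 and Ugt1a6a. Genes without one count as not called in both shares. Without F3 *thia* replicate 2, edgeR called 1 member, Gstm5, and 6.82% of all genes. The members' median log2 fold change was 0.14, with 47 of 77 above 0 (61.0%), beside 0.00437 for all genes, of which 50.6% lay above 0. Of the 29 tested members whose 2 highest libraries were F3 *thia* replicate 2 and F3 control replicate 3, 26 lay above 0 (median 0.93). Among the other 48 members, 21 lay above 0 (median -0.06). The 2 sets were divided by F3 values that also enter these fold changes, so the split is no separate result.

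Gstm5 and Gstp1 stood closest to the threshold, with fold changes of opposite sign. Gstm5, a mu-class transferase at chr3:107895821-107898686, was measured at 159, 148 and 149 CPM in the control libraries and 118, 127 and 119 CPM in the *thia* libraries. All 3 *thia* libraries lay below all 3 controls (log2 fold change -0.33, SE 0.0688, unadjusted p = 0.00179, adjusted p = 0.105). Its DESeq2 adjusted p was 0.00411, and over all alternatives the adjusted p ranged from 0.00411 to 0.364. Gstp1, the pi-class enzyme that also binds stress kinases, lies at chr19:4035407-4037985 and was measured at 86.6, 117 and 113 CPM in the control libraries and 143, 154 and 146 CPM in the *thia* libraries. All 3 *thia* libraries lay above all 3 controls (log2 fold change 0.48, SE 0.12, unadjusted p = 0.00463, adjusted p = 0.114), and the adjusted p ranged from 0.00629 to 0.364 over the alternatives. The neighbouring Gstp2 shares sequence with Gstp1 (25.1% of the 100-base windows of Gstp1 occur in other genes), but Gstp2 itself was at only 0.620, 1.64 and 0.983 CPM in F3 control and 1.34, 1.18 and 1.45 CPM in F3 *thia*. Both genes kept their direction without the 2 libraries richest in hepatocyte markers. There the log2 fold change was -0.37 for Gstm5 and 0.51 for Gstp1, with adjusted p-values of 0.122 and 0.132.

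**Figure D5:**
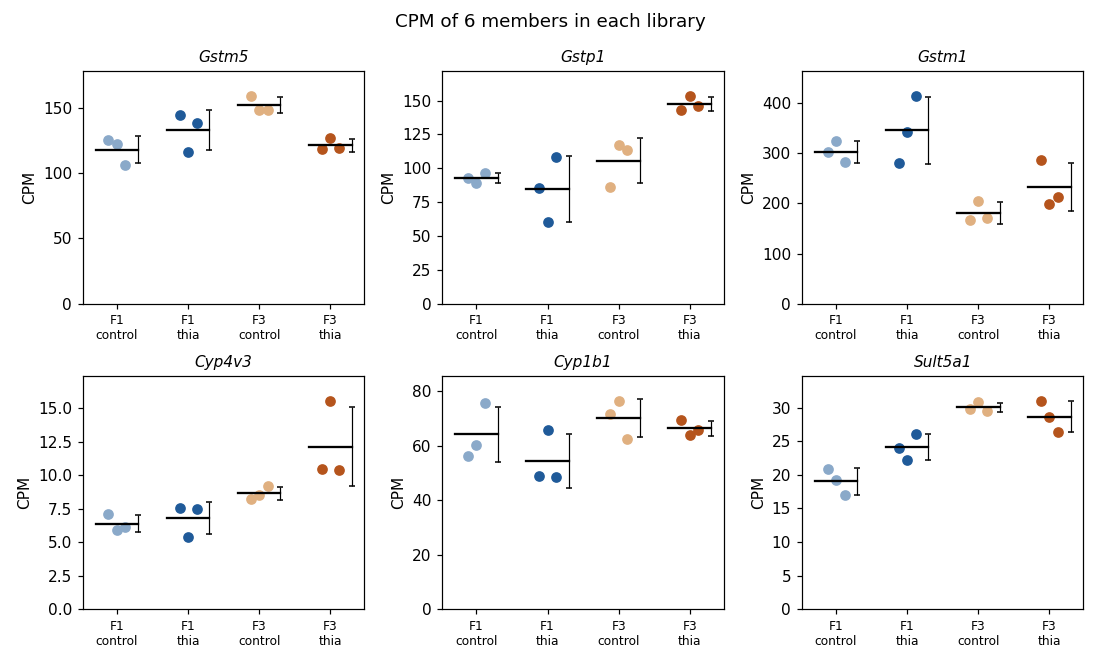
CPM of Gstm5, Gstp1, Gstm1, Cyp4v3, Cyp1b1 and Sult5a1 in each library. Points are libraries, horizontal bars are group means and vertical bars are the SD of 3 libraries. In F3, the 3 *thia* libraries of Gstm5 (118 to 127 CPM) lie below the controls (148 to 159 CPM), and those of Gstp1 (143 to 154 CPM) lie above them (86.6 to 117 CPM).

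The other 4 members past an unadjusted p of 0.05 were Gstm1, Cyp4v3 and Cyp2a5, with higher values in *thia*, and Cyp1a2, with lower values. Gstm1 was at 166, 206 and 171 CPM in the control libraries and 287, 198 and 214 CPM in the *thia* libraries (log2 fold change 0.36, SE 0.15, unadjusted p = 0.0445, adjusted p = 0.226), and the groups overlapped through *thia* replicate 2. The fatty acid hydroxylase Cyp4v3 was at 8.25, 8.49 and 9.19 CPM in the control libraries and 10.48, 15.54 and 10.4 CPM in the *thia* libraries (log2 fold change 0.48, SE 0.18, unadjusted p = 0.0315, adjusted p = 0.193). Its groups did not overlap, its highest library was the one richest in hepatocyte markers, and without the 2 libraries its log2 fold change was 0.32 (adjusted p = 0.265). Cyp2a5 was at 0.310, 0.297 and 0.106 CPM in the control libraries and 0.50, 0.777 and 0.404 CPM in the *thia* libraries (log2 fold change 1.21, SE 0.45, unadjusted p = 0.0308, adjusted p = 0.191). Without the 2 libraries its log2 fold change was 0.57 (unadjusted p = 0.199, adjusted p = 0.462). With all libraries it was higher in *thia* than in control without overlap in both generations, from at most 27 counts in a library.

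Cyp1a2, an Ahr target that oxidises aromatic amines, was the single P450 among the 6 with lower values in *thia*. It was at 0.403, 0.593 and 0.425 CPM in the control libraries and 0.318, 0.230 and 0.2996 CPM in the *thia* libraries, and the groups did not overlap (log2 fold change -0.73, SE 0.30, unadjusted p = 0.0457, adjusted p = 0.229). Without the 2 libraries its log2 fold change was -0.69 (unadjusted p = 0.131, adjusted p = 0.374). The next members by p were Gsto1 (log2 fold change -0.25), Cyp4f14 (0.76), Cyp2f2 (0.56) and Cyp4f15 (0.58), with adjusted p-values of 0.269 to 0.388. The most abundant member, Gstm2, was at 368, 369 and 274 CPM in the control libraries and 416, 253 and 333 CPM in the *thia* libraries (log2 fold change -0.01, SE 0.19, unadjusted p = 0.941, adjusted p = 0.974). Cyp1b1 was at 71.7, 76.4 and 62.6 CPM in the control libraries and 69.4, 64.03 and 65.6 CPM in the *thia* libraries (log2 fold change -0.08, SE 0.0850, unadjusted p = 0.362, adjusted p = 0.620).

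The Ugt and Cyp3 genes had F3 fold changes that were not separated from their spread. All 9 Ugt genes tested had a log2 fold change above 0, with a median of 1.08, and so had all 4 Cyp3 genes, with a median of 1.09, but none reached an unadjusted p of 0.05. For Ugt2b34 the log2 fold change was 1.03 with an SE of 1.10, and 0.10 with an SE of 0.38 without the 2 libraries. For Cyp3a16 it was 1.15 with an SE of 1.15, and 0.11 with an SE of 0.35 without them. Leaving out both libraries, 7 of 75 members had an unadjusted p under 0.05 (9.33%, against 21.0% of all genes), and these were the 6 Gst genes Gsta3, Gstm1, Gstm5, Gstm6, Gsto1 and Gstp1, and Sult1e1.

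Of 73 members tested both ways, 13 had a log2 fold change of the other sign without the 2 libraries. None of the 13 had an unadjusted p under 0.05 with all libraries, and 1 did without the 2. It was Sult1e1, the oestrogen sulfotransferase, which is named after its values were seen. It was at 0.217, 0.0809 and 2.71 CPM in the control libraries and 0.386, 0.201 and 0.719 CPM in the *thia* libraries, with the highest value in control replicate 3 (102 counts). Its log2 fold change was -1.16 (adjusted p = 0.583) with all libraries and 1.95 (adjusted p = 0.147) without the 2 libraries.

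The difference between the F3 and F1 effects was then tested directly over the 12 libraries. No member passed an FDR of 0.1 in edgeR among the 84 tested, against 0.00510% of all 19626 genes. At an unadjusted p under 0.05, 8 members passed (9.52%), against 14.0% of all genes. Their number was 5 without F1 control replicate 1 or F1 *thia* replicate 3, and 14 without F3 control replicate 3 or F3 *thia* replicate 1. DESeq2 called 1 member, Gstm5, against 3.69% of all genes. Many members, such as Cyp1a2 and Cyp2c69, had no DESeq2 adjusted p here and count as not called. Gstm5 had a log2 fold change of 0.19 in F1 and -0.33 in F3, and their difference was -0.50 (SE 0.13, unadjusted p = 0.00250, adjusted p = 0.248). For Sult5a1 the values were 0.36 in F1 and -0.07 in F3, and the difference was -0.41 (SE 0.14, adjusted p = 0.259). Sult2a4 was the other of the 3 smallest p-values (adjusted p = 0.254), but it rested on counts of 0, 0 and 1 in F3 control beside 15, 6 and 8 in F3 *thia*, and of 3, 11 and 7 beside 14, 5 and 12 in F1.

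The control testes of the 2 generations, both descended from dams given oil, were compared next. Between F3 control and F1 control, 34 of 84 members passed an FDR of 0.1 in edgeR (40.5%), against 42.3% of all genes, so that the members' share was not above the background. Of these, 28 were higher in F3 (33.3%, against 19.9% of all genes) and 6 were lower (7.14%, against 22.4%). The 32 members whose 2 highest libraries were F3 *thia* replicate 2 and F3 control replicate 3 made up 16 of the 28 and 0 of the 6. They were picked partly through an F3 control library, so their direction here is no separate result. The generation cannot be told apart from the time at which its embryos were collected, and these control libraries also serve in the 2 *thia* comparisons. Sums of hepatocyte markers (154 to 576 CPM in F1 control, 491 to 2195 CPM in F3 control) and of 5 erythroid markers (2038 to 7078 and 27029 to 30284 CPM) were higher in F3 control, the first with overlap. The sum was also higher in F3 control for 4 markers of coelomic and surface epithelium (279.7 to 319.9 and 515 to 617 CPM) and 5 of macrophages (46.7 to 53.5 and 91.95 to 149 CPM). It was lower for 6 Sertoli markers (1112 to 1367 and 628 to 818 CPM) and 5 of endothelium (213 to 260.4 and 144 to 166 CPM). Some markers did not follow their sum. Kdr of the endothelium list was at 69.1, 52.7 and 67.5 CPM in F1 control and 72.6, 77.8 and 72.8 CPM in F3 control. Cst9 of the Sertoli list was at 54.4, 247 and 15.1 CPM and 209, 190 and 195 CPM. Lhx9 of the epithelium list was at 162, 135 and 171 CPM and 129, 153 and 131 CPM. The other markers of these lists followed their sum. The part of these cell types in the members' differences was not tested. 2 of the 28 also belong to the 7 members that met the count filter in F3 libraries only, which were bound to be higher there. The count of members called was 17 without F1 control replicate 2, 19 without F1 control replicate 3 and 18 without F3 control replicate 3. Of all genes, 6541, 7058 and 6243 were called with these omissions, against 8300 with all libraries. Without the 2 libraries richest in hepatocyte markers 29 members were called, 25 of them the same genes, against 35.0% of all genes.

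Sult5a1, Gstt2, Gsto1, Cyp2w1 and Gstm1 had the smallest p-values. Sult5a1 was at 20.9, 19.2 and 16.9 CPM in F1 control and 29.8, 30.9 and 29.5 CPM in F3 control (log2 fold change 0.66, SE 0.10, unadjusted p = 2.51e-05, adjusted p = 7.28e-04). The theta-class Gstt2 was at 12.4, 11.1 and 7.86 CPM and 20.3, 19.4 and 18.6 CPM (log2 fold change 0.89, SE 0.15, unadjusted p = 4.19e-05, adjusted p = 9.32e-04), and Gsto1 at 45.8, 44.7 and 38.4 CPM and 63.3, 55.9 and 68.98 CPM (log2 fold change 0.54, SE 0.11, unadjusted p = 1.96e-04, adjusted p = 0.00232). For each of these the groups did not overlap. Cyp2w1, a P450 known from the fetal gut, was at 0.103, 0.164 and 0.222 CPM and 0.868, 0.431 and 1.51 CPM (log2 fold change 2.56, SE 0.50, unadjusted p = 2.28e-04, adjusted p = 0.00256).

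The mu class was divided between the generations. Gstm1 fell from 302, 325 and 282 CPM in F1 control to 166, 206 and 171 CPM in F3 control (log2 fold change -0.74, SE 0.16, unadjusted p = 4.66e-04, adjusted p = 0.00408). Gstm2 (log2 fold change -0.51) and Gstm7 (-0.35) fell with it, while Gstm4 (0.61) and Gstm5 (0.37) rose. The other genes that fell were Gstk1, Cyp4f17 and Sult2a4.

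Genes that regulate or serve these enzymes were examined as 6 lists with 74 genes, of which 71 were tested in F1 and 72 in F3. None passed the FDR in edgeR in either generation, whereas DESeq2 called 1 in F1 (against 0.888% of all genes) and 12 in F3, 8 higher and 4 lower in *thia* (against 13.7%). DESeq2 gave no adjusted p for 2 of the tested genes in F1 and 5 in F3. At an unadjusted p under 0.05, 4 of 71 (3 higher, 1 lower) passed in F1, against 8.76% of all genes, and 17 of 72 (11 higher, 6 lower) passed in F3, against 21.1%. In F1 the smallest p belonged to the reductase Ptgr1, at 151, 191 and 153 CPM in the control libraries and 128, 103 and 111 CPM in the *thia* libraries (log2 fold change -0.52, SE 0.12, unadjusted p = 0.00140, adjusted p = 0.446), and it was the gene called by DESeq2 (adjusted p = 0.0144). The organic cation transporter Slc22a3 (0.77) and the flavin monooxygenase Fmo1 (0.61) followed, both with an adjusted p of 0.518.

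In F3, 2 of the 4 electron donor genes had an unadjusted p under 0.05, and both were higher in *thia*. Cyb5r3, which reduces cytochrome b5, was at 141, 161 and 172 CPM in the control libraries and 204, 234 and 247 CPM in the *thia* libraries (log2 fold change 0.53, SE 0.11, unadjusted p = 0.00159, adjusted p = 0.105). Por, the reductase that all members of the P450 family depend on, was the other of the pair and is named after its values were seen. It was at 96.4, 114 and 108 CPM in the control libraries and 152, 147 and 201 CPM in the *thia* libraries (log2 fold change 0.65, SE 0.14, unadjusted p = 0.00189, adjusted p = 0.105). The *thia* libraries lay above the controls without overlap for Cyb5r3 as for Por. The efflux pump Abcb1a was at 1.09, 1.35 and 0.744 CPM in the control libraries and 2.70, 2.24 and 2.43 CPM in the *thia* libraries (log2 fold change 1.21, SE 0.25, unadjusted p = 0.00173, adjusted p = 0.105), and the Golgi sulphate donor transporter Slc35b3 was lower, at 23.98, 24.1 and 23.9 CPM in the control libraries and 17.9, 18.3 and 18.9 CPM in the *thia* libraries (log2 fold change -0.38, SE 0.0803, unadjusted p = 0.00175, adjusted p = 0.105). The DESeq2 adjusted p was 6.59e-04 for Cyb5r3, 8.77e-04 for Por, 0.00408 for Abcb1a and 0.00528 for Slc35b3. Beside these values, the sum of the 5 fetal Leydig markers was 2166 to 3596 CPM in F3 control and 3800.2 to 6881 CPM in F3 *thia*. The sum of 5 endothelium markers was 144 to 166 and 223 to 266 CPM. That of 6 adrenal markers was 38.03 to 55.9 and 60.7 to 123 CPM. Of the single Leydig markers, only Cyp17a1 and Star were higher in *thia* without overlap. Of the adrenal markers only Mrap was, and of the endothelium markers all except Kdr. For the other markers of these lists the groups overlapped, and Th and Dbh of the adrenal list had lower means in *thia*. The part of these cell types in the differences was not tested.

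The receptors that control the members were present at unequal levels. In F3, Ahr was at 25.2, 21.2 and 25.1 CPM in the control libraries and 22.3, 23.2 and 20.6 CPM in the *thia* libraries, with a log2 fold change of -0.18 in F1 and -0.12 in F3. Nfe2l2 in F3 was at 43.7, 48.7 and 48.97 CPM in the control libraries and 53.8, 56.5 and 54.6 CPM in the *thia* libraries (log2 fold change 0.22, SE 0.0758, unadjusted p = 0.0219, adjusted p = 0.169). Nr1i3 was too low to be tested, at no more than 0.334 CPM in any library, and Nr1i2 was at most 3.31 CPM, in F3 *thia* replicate 2.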

How the data were processed

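RNA of 12 testis pools was sequenced with a strand-specific paired-end protocol. The submitters' processing notes name bcl2fastq 2.20.0.422, HISAT2 2.1.0 on mm10, featureCounts and DESeq2 2.11.40.7. The authors deposited raw counts per gene symbol, not normalised, and their counting options are not given in the sources used here. Genes that share sequence, such as the Ugt1a genes, Gsta1, and Gstp1 with Gstp2, can exchange reads.

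Counts were fitted in R 4.3.3 with the quasi-likelihood test of edgeR 4.0.16 after filterByExpr (minimum count 10) and TMM scaling. P-values were adjusted by Benjamini-Hochberg over all genes tested, with an FDR of 0.15 in F1 and 0.1 elsewhere. F1 and F3 were each fitted on their own 6 libraries, and the difference of effects and the control generations on all 12. An SE is the log2 fold change divided by the root of F. DESeq2 1.42.0 and the settings of the closing section were alternatives. Scripts were tested on simulated data. Levels are CPM, and RPKM over the union of exons of GENCODE M21, in which 86 members were matched by symbol and 1 by a RefSeq synonym. Tables were made in Python 3.11.15.

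The members and lists were chosen with earlier results of these data known. Named are, in F1 and F3, the 10 members with the smallest p, 3 for the difference and 5 for the generations, the highest member per kilobase of each class, and the 3 pathway genes with the smallest p in each generation. No 2 replicates agreed within sampling noise. Each library is a separate pool, and the p-values measure the spread between 3 pools a group. Total counts set the precision of low genes: the SE was below 0.25 for 35 of 63 members in F1 and 22 of 77 in F3. Its median was 0.233 for members and 0.142 for all genes in F1, and 0.351 and 0.152 in F3. For the difference it was 0.526 and 0.228, and between the control generations 0.385 and 0.162.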

Additional observations from a re-analysis of the deposited data

How the results depend on the processing

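With no filter beyond a total above 0, edgeR called 1 member in F1, Ugt2b34, and 2 in F3, Gstp1 and Sult2a4, instead of 0. Of all genes, 243 were then called in F1 instead of 2, and 569 in F3 instead of 0. In F3, 3 members were called by DESeq2, 2 by 1 fit of all 12 libraries (Gstm5 and Sult2a4) and 1 with upper quartile scaling (Gstm5). Of all genes, these settings called 2546, 1936 and 520. DESeq2 called 1 member for the difference between the effects, and 724 of all genes. Members with an unadjusted p under 0.05 in F1 numbered 3 with DESeq2 and 10 without the filter instead of 5. Over all genes the numbers were 1576 and 2524 instead of 1677. An FDR of 0.05 left 21 of 34 members called between the control generations, and the same count over all genes is not given here.

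The replicate numbers did not pair the libraries, since deviations of the same number correlated at -0.0433 to 0.0316 in F1 and -0.368 to 0.195 in F3. With the replicate number as a block, 0 members were called in F1, F3 and the difference. At an unadjusted p under 0.05, 3, 3 and 5 members passed. Of all genes, 3, 0 and 0 were called with the block, and 1397, 3429 and 2245 had such a p. No block could be fitted between the control generations, because a number then has no partner within a generation.

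Leaving out 1 library at a time gave 2 to 12 members with an unadjusted p under 0.05 in F1, 5 to 14 for the difference and 20 to 47 between the control generations. It gave 0 to 1 members called in F3 and 17 to 47 called between the control generations. The log2 ratio of the Ugt sum in F3 was then -0.79 to 2.18. Of all genes, 1004 to 2305 had an unadjusted p under 0.05 in F1. The numbers were 1818 to 3155 for the difference and 7314 to 9018 between the control generations. Called were 0 to 1294 of all genes in F3 and 6243 to 8704 between the control generations. The F1 ratio of the Ugt sum was -1.57 over members with at least 10 counts in all 12 libraries, and that of the Sult sum was 7.84e-05 without Sult5a1, its highest member by CPM. Leaving out the 2 F3 libraries with the most hepatocyte marker RNA was chosen after seeing the data. Of the members named by order of p, none changed its direction in that comparison under any alternative run, but 13 of 73 members did so in F3 without those 2 libraries, Sult1e1 and Gstm2 among them. The causes of these shifts were not tested. Scaling moved the median log2 fold change of all genes by less than 0.1. Pools of 3 per group and low counts limit what can be seen: changes of Ugt and Cyp3 members smaller than their SE were not detectable, and larger ones could be missed. In F3, for example, Ugt1a6a had a log2 fold change of 1.43 with an SE of 1.03 and an edgeR unadjusted p of 0.204.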
